A study of Mus musculus with 9 samples.

Results

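Mitochondrial ribosomal proteins are the nuclear-encoded proteins of the mitoribosome, and their mRNAs were followed in a mouse renal carcinoma line that had lost, and then regained, the gene Ndufa4l2. Members were the protein-coding genes of the deposited table whose symbol begins with Mrpl or Mrps and a number, which gave 78 of the 54532 genes listed: 49 with a large-subunit symbol and 29 with a small-subunit symbol. Of these, 77 had enough counts to be tested, 48 large and 29 small, among 13326 genes tested in all. The remaining member, Mrpl53 on chromosome 6 (83109040 to 83109939, plus strand), had 0 counts in all 9 libraries, which allows at most 0.107 to 0.248 CPM (counts scaled to library size) per library at a limit of 3 counts. In the annotation, 88.0% of its exon bases are shared on the same strand with Gm42688, which had 0 to 15 counts.

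The cells were RENCA, an established mouse renal carcinoma line. Rescue cells were knockout cells given Ndufa4l2 by lentivirus and kept in puromycin at 1.5 ug/mL, labelled NDUFA4L2 +/+. Knockout cells, labelled Ndufa4l2 -/-, were clones grown from single cells after Cas9 editing with 1 guide and screened by qPCR. Empty-vector cells, labelled WT, carried the vector without the gene. Each group had 3 libraries, of poly(A)-selected RNA by the labels' protocol, although the molecule field names genomic DNA. The labels do not say whether empty-vector cells were cloned, nor from which knockout clone the rescue cells were made, so effects of cloning, lentivirus and puromycin cannot be told apart from those of Ndufa4l2. Separate cultures are not named either, and the p-values therefore cover library-to-library spread that may be technical.

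The mitoribosome reads the mRNAs made from mitochondrial DNA and builds the respiratory-chain subunits they encode in the inner membrane. Its small subunit holds the mRNA and decodes it, and its large subunit joins the amino acids and threads the new protein out. The ribosomal RNAs come from mitochondrial DNA, while every protein is made in the cytosol and imported. Many of the proteins descend from bacterial ribosomal proteins and the others are found only in mitochondria. Ndufa4l2, the gene that was edited, is a paralogue of the respiratory-chain gene Ndufa4.

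Ndufa4l2 itself had 73, 48 and 35 counts in rescue libraries, 7, 8 and 6 in knockout libraries and 12, 6 and 16 in empty-vector libraries. The rescue libraries lay above all others, and the knockout and empty-vector libraries overlapped at these low counts. Total counts per library ranged from 13106531 to 26643877, and the tested members had 112 to 5232 counts each. Transcripts of mitochondrial DNA took 2.24% to 2.65% of counts in rescue libraries, 5.79% to 7.93% in knockout libraries and 2.16% to 3.17% in empty-vector libraries. CPM values were computed on library sizes scaled by the trimmed mean of M values (TMM). Of 11 renal epithelial markers 8 were tested, and Epcam and Krt19 had at most 1 count. The sum of that list was 1345 to 1399 CPM in rescue, 1645 to 1764 CPM in knockout and 1009 to 1238 CPM in empty-vector libraries, and all 8 were called in knockout against empty vector, 6 higher and 2 lower. Cdh1 (E-cadherin) averaged 2.46 CPM in rescue, 99.6 CPM in knockout and 11.9 CPM in empty-vector libraries, and Pax8, a renal transcription factor, 165 CPM in rescue, 98.6 CPM in knockout and 237 CPM in empty-vector libraries. Of 8 leukocyte markers, Cd3e, Itgam and Adgre1 were at 0 and neither Ptprc nor Tyrobp exceeded 2 counts, while the sum of the list, carried by Csf1r and Lyz2, was 2.39 to 2.78 CPM in rescue, 10.7 to 12.2 CPM in knockout and 1.72 to 2.62 CPM in empty-vector libraries. Of 6 endothelial and fibroblast markers, Kdr and Lum were at 0 and Cdh5 and Dcn had at most 1 count, while the sum of the list, carried by Pdgfrb, was 24.5 to 25.8 CPM in rescue, 54.4 to 65.7 CPM in knockout and 25.2 to 31.7 CPM in empty-vector libraries. The 3 marker sums and the mitochondrial share were highest in knockout libraries, and their part in the results below was not tested.

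Rescue cells carried the most mitoribosomal protein mRNA. Summed over the members, it came to 4171, 4334 and 4232 CPM in rescue libraries, 3628, 3692 and 3814 CPM in knockout libraries and 3968, 3756 and 3906 CPM in empty-vector libraries. Every rescue library lay above every other library, while knockout and empty-vector libraries overlapped. As a share of all counts, without TMM scaling, the members took 0.439% to 0.454% in rescue libraries. That share was 0.330% to 0.358% in knockout and 0.396% to 0.403% in empty-vector libraries, so these groups did not overlap on that scale. The large-subunit sum averaged 2806 ± 57.8 CPM in rescue, 2427 ± 56.6 CPM in knockout and 2520 ± 91.3 CPM in empty-vector libraries (SD, n = 3 each). The small-subunit sum averaged 1440 ± 24.9 CPM in rescue, 1284 ± 39.0 CPM in knockout and 1357 ± 18.1 CPM in empty-vector libraries (SD, n = 3 each). The small-subunit sums of the knockout libraries all lay below those of the empty-vector libraries, and the large-subunit sums of these groups overlapped. As a share of counts the large-subunit sums did not overlap, at 0.215% to 0.233% in knockout and 0.256% to 0.262% in empty-vector libraries. The ratio of large to small sums was 1.95 ± 0.00681 in rescue, 1.89 ± 0.0206 in knockout and 1.86 ± 0.0438 in empty-vector libraries (SD, n = 3 each). In bulk RNA a lower level can come from fewer expressing cells or from less RNA per cell, and these cannot be told apart.

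**Figure D1:**
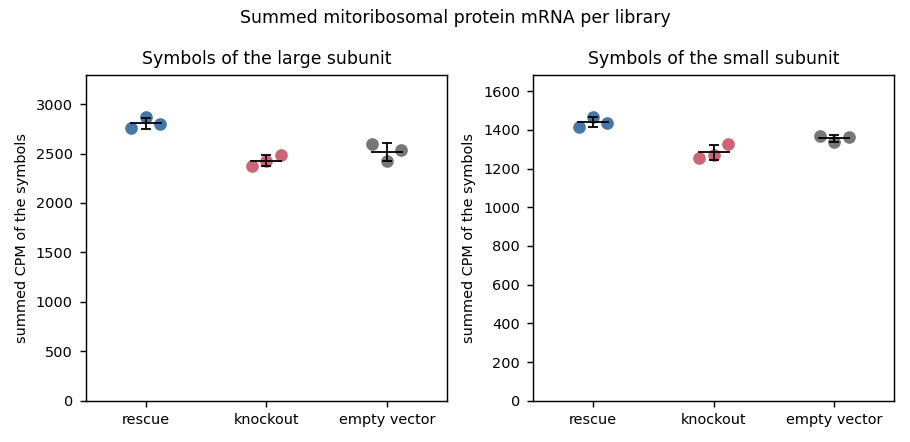
Summed TMM-scaled CPM of the members with large-subunit (left) and small-subunit (right) symbols in each library, with group mean (line) and SD (bar), n = 3 per group. The rescue libraries lie above the knockout and empty-vector libraries in both panels, at means of 2806 and 1440 CPM.

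Per length of transcript, the members spanned a wide range. The lowest mean FPKM over the 9 libraries were 2.69 for Mrpl48, 3.13 for Mrps30 and 3.17 for Mrps35, and the highest were 102 for Mrpl14, 84.6 for Mrpl28 and 81.8 for Mrpl2, with a median of 19.9 FPKM over the 77 tested. The protein made from Mrpl14 belongs to the bacterial L14 family and that from Mrpl2 to the L2 family, which lies near the site of peptide bond formation. The FPKM values divide by the length of all annotated exons of a gene, so a gene with long minor transcripts is placed low in this order.

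Knockout cells showed members moving both ways against empty-vector cells, with few large changes. By edgeR's quasi-likelihood test, with p-values adjusted by Benjamini and Hochberg's method over all genes, 10 of 48 large-subunit members rose and 17 fell, and 5 of 29 small-subunit members rose and 10 fell. Over all genes tested, 60.6% were called in this comparison, 29.5% higher and 31.1% lower, against 19.5% higher and 35.1% lower among the members. The total share of members called, 54.5%, was near that background. The median log2 change was -0.08 for large-subunit members and -0.03 for small-subunit members, beside -0.02 for all genes. There was no overlap between libraries for 19 members that were higher and 29 that were lower in knockout, where 63.7% of all genes did not overlap, 30.8% higher and 32.8% lower. Mrps22 was the only member to change by 1 log2 unit or more, where 1640 of the 13326 genes tested did. The small-subunit count of 5 higher became 10 without empty-vector replicate 1, and the small-subunit median became 0.044 without knockout replicate 1. Over all members, 25 were higher and 27 lower without empty-vector replicate 1. Increases were then 48.1% of the members' calls and 49.95% of those of all genes, against 35.7% and 48.7% with all 9 libraries. The excess of decreases among the members thus depended on that library. With library totals in place of TMM scaling, the median of all genes shifted by -0.15 and 8 members rose while 41 fell. That made 16.3% of the members' calls and 34.4% of those of all genes increases, against 35.7% and 48.7% with TMM scaling. The median of the members minus that of all genes was -0.04 with either scaling.

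**Figure D2:**
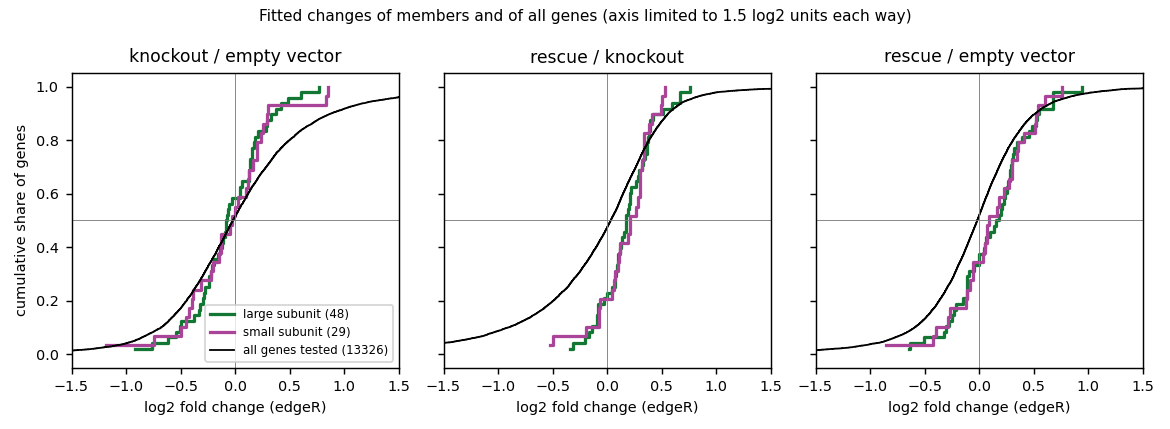
Cumulative share of large-subunit members (48), small-subunit members (29) and all genes tested (13326) by log2 fold change in 3 panels: knockout against empty vector on the left, rescue against knockout in the middle and rescue against empty vector on the right. The member curves cross the middle line at -0.08 and -0.03 in the left panel, at 0.17 and 0.21 in the middle panel and at 0.17 and 0.09 in the right panel, while the curve of all genes crosses it at -0.02, 0.03 and -0.02.

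Mrps22 showed the largest loss in knockout cells. It encodes a small-subunit protein without a bacterial counterpart, variants of which cause mitochondrial disease in humans, and lies on chromosome 9 (98588730 to 98601660, minus strand). The 120 bases before its start are shown because this member changed most. They come from RefSeq, build GRCm38.p6, as do the other promoters below, and are counted back from the RefSeq start. That start lies inside the gene coordinates given here for Mrps21 by 5 bases, Mrpl12 by 24, Mrps6 by 66 and Mrpl32 by 128. For Mrps22 it lies 19 bases outside them. The region is chr9:98601680-98601799, minus strand, and the letters CCGGAAG, the core bound by ETS-family factors such as GABP, are in capitals:
Mrps22: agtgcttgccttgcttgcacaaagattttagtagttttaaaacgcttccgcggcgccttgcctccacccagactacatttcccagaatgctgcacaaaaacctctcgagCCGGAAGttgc
Mrps22 stood at 34.2, 33.0 and 35.2 CPM in rescue libraries, 26.8, 26.8 and 27.5 CPM in knockout libraries and 61.7, 60.2 and 62.9 CPM in empty-vector libraries. The 3 groups did not overlap: knockout was lowest, and rescue stayed well below empty vector. The log2 change was -1.19 ± 0.06 in knockout against empty vector (SE; adjusted p = 1.3e-11), 0.34 ± 0.07 in rescue against knockout (adjusted p = 0.00023) and -0.85 ± 0.06 in rescue against empty vector (adjusted p = 3.3e-09). The other 21 genes tested within 2 Mb of it had medians of -0.19, 0.25 and 0.14 in the same comparisons.

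Mrpl32 was the large-subunit member that fell most in knockout cells and it rose again in rescue cells. Its product belongs to the bacterial L32 family and is cut to its mature form by the inner-membrane protease that contains Afg3l2. The gene lies on chromosome 13 (14608184 to 14613165, minus strand). The bases shown fall within that span, because they are counted from the RefSeq start. The bases before its start, chr13:14613038-14613157 on the minus strand, hold letters of the site of nuclear respiratory factor 1 (NRF1), GCGCANGCG on either strand, in capitals:
Mrpl32: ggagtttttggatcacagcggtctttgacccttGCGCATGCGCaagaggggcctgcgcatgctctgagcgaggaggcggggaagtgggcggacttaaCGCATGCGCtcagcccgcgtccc
Mrpl32 stood at 28.3, 32.8 and 31.9 CPM in rescue libraries, 21.4, 18.3 and 18.5 CPM in knockout libraries and 37.4, 32.5 and 39.6 CPM in empty-vector libraries. Every knockout library lay below all others, while rescue and empty-vector libraries overlapped. The log2 change was -0.92 ± 0.09 in knockout against empty vector (adjusted p = 6.6e-08) and 0.67 ± 0.09 in rescue against knockout (adjusted p = 5e-06). In rescue against empty vector it was -0.25 ± 0.09 (adjusted p = 0.027), a call that was lost without empty-vector replicate 1, without empty-vector replicate 3 and without rescue replicate 1. Afg3l2 averaged 102 ± 2.71 CPM in rescue, 79.2 ± 6.16 CPM in knockout and 110.2 ± 5.07 CPM in empty-vector libraries (SD, n = 3 each), with log2 changes of -0.48 ± 0.07 in knockout against empty vector (adjusted p = 2.9e-06) and 0.37 ± 0.07 in rescue against knockout (adjusted p = 7.9e-05).

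The other small-subunit members named among the decreases in knockout cells were Mrps31, Mrps30, Mrps10, Mrps26 and Mrps17. Mrps31, a mitochondria-specific protein of the subunit's head, stood at 26.1, 25.3 and 24.7 CPM in rescue libraries, 19.3, 19.2 and 22.2 CPM in knockout libraries and 27.7, 37.7 and 37.1 CPM in empty-vector libraries. The groups did not overlap, with rescue between the others. Its log2 change was -0.74 ± 0.11 in knockout against empty vector (adjusted p = 7.5e-06) and -0.42 ± 0.10 in rescue against empty vector (adjusted p = 0.0023). In rescue against knockout it was 0.32 ± 0.11 (adjusted p = 0.017), a call lost without knockout replicate 1, knockout replicate 2 or rescue replicate 1. Mrps10 and Mrps17 belong to the bacterial S10 and S17 families, and Mrps26 is mitochondria-specific. Mrps10 fell by 0.45 ± 0.07 on the log2 scale in knockout against empty vector (adjusted p = 1.5e-05) and rose by 0.51 ± 0.07 in rescue against knockout (adjusted p = 4.4e-06). Mrps26 averaged 90.4 ± 3.90 CPM in rescue, 73.1 ± 5.29 CPM in knockout and 98.2 ± 7.65 CPM in empty-vector libraries (SD, n = 3 each). Mrps17 averaged 55.2 ± 2.20 CPM in rescue, 45.5 ± 1.03 CPM in knockout and 59.8 ± 4.50 CPM in empty-vector libraries (SD, n = 3 each). For Mrps10, Mrps26 and Mrps17 the rescue level did not differ from empty vector by the test (adjusted p = 0.55, 0.17 and 0.17), though Mrps26 and Mrps17 were called lower in rescue without empty-vector replicate 1 (adjusted p = 0.042 and 0.049).

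Among large-subunit members, Mrpl36, Mrpl24, Mrpl34, Mrpl13 and Mrpl23 also fell in knockout cells. Mrpl36, of the small zinc-binding L36 family, stood at 26.2, 27.2 and 24.3 CPM in rescue libraries, 20.7, 23.4 and 26.7 CPM in knockout libraries and 38.0, 41.2 and 41.9 CPM in empty-vector libraries. Its rescue and knockout libraries overlapped, and both groups lay below empty vector: the log2 change was -0.77 ± 0.09 in knockout against empty vector (adjusted p = 3.5e-07) and -0.64 ± 0.09 in rescue against empty vector (adjusted p = 6.3e-06). In rescue against knockout its change was 0.13 ± 0.09 (adjusted p = 0.24), a difference called only without knockout replicate 3 or with library totals. Mrpl24, of the L24 family at the exit tunnel, was likewise low in rescue and knockout alike, at 42.6 ± 3.65 CPM in rescue, 43.7 ± 0.418 CPM in knockout and 66.8 ± 5.43 CPM in empty-vector libraries (SD, n = 3 each). On the log2 scale it changed by -0.61 ± 0.07 in knockout against empty vector (adjusted p = 8.2e-07) and -0.65 ± 0.07 in rescue against empty vector (adjusted p = 9.7e-07). It shares 26.3% of its exon bases, on the opposite strand, with Rrnad1, which had 227 to 486 counts. Rrnad1 had log2 values of -0.255 ± 0.110 and -0.266 ± 0.108 in these comparisons (adjusted p = 0.052 and 0.049). The strand setting of the counting is not known, and the Mrpl24 value is uncertain to that extent. Mrpl34, of the L34 family, was more variable: it fell by 0.54 ± 0.15 on the log2 scale in knockout against empty vector (adjusted p = 0.0076), with 1 empty-vector library at 29.1 CPM and the others at 44.4 and 39.2 CPM. Its change was 0.04 ± 0.15 in rescue against knockout (adjusted p = 0.83) and -0.50 ± 0.15 in rescue against empty vector (adjusted p = 0.015). The latter libraries overlapped, and that call was lost without empty-vector replicate 3 or rescue replicate 2. Mrpl13 and Mrpl23, of the L13 and L23 families, fell in knockout cells and rose again in rescue cells. Mrpl13 stood at 186, 204 and 194 CPM in rescue libraries, 119, 125 and 125 CPM in knockout libraries and 176, 165 and 182 CPM in empty-vector libraries. The fitted log2 change was -0.51 ± 0.06 in knockout against empty vector (adjusted p = 6.9e-07) and 0.66 ± 0.06 in rescue against knockout (adjusted p = 2.1e-08), with every rescue library above every empty-vector library. Mrpl23 fell by 0.50 ± 0.06 on the log2 scale in knockout against empty vector (adjusted p = 7.3e-07) and rose by 0.39 ± 0.06 in rescue against knockout (adjusted p = 1.9e-05).

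Mrps6 and Mrps21 showed the largest increases of small-subunit members in knockout cells. Mrps6, of the bacterial S6 family, lies on chromosome 16 (92058270 to 92112227, plus strand). The bases before its start, chr16:92058216-92058335 on the plus strand, are shown for contrast, since the letters of the 3 motifs searched (given with the promoter counts) are not in its window:
Mrps6: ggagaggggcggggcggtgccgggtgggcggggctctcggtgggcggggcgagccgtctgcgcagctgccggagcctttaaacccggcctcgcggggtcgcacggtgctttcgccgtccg
Mrps6 stood at 54.3, 53.0 and 48.4 CPM in rescue libraries, 68.7, 72.1 and 79.3 CPM in knockout libraries and 35.4, 43.5 and 43.3 CPM in empty-vector libraries. The groups did not overlap, with knockout highest: the log2 change was 0.85 ± 0.08 in knockout against empty vector (adjusted p = 3.2e-08), -0.50 ± 0.08 in rescue against knockout (adjusted p = 2.7e-05) and 0.35 ± 0.08 in rescue against empty vector (adjusted p = 0.0015). Mrps6 shares 10.4% of its exon bases, on the same strand, with Slc5a3, the sodium and myo-inositol transporter, and 19.9% with Gm49711, which was not analysed here. Slc5a3 had log2 values of 1.53 ± 0.12, -1.69 ± 0.12 and -0.16 ± 0.12 in the same comparisons (adjusted p = 2.3e-07, 1.1e-07 and 0.29). The sources used here do not give how reads in the shared bases were divided, and the Mrps6 value is uncertain to that extent. The other 38 genes tested within 2 Mb had medians of 0.34, -0.44 and -0.13.

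Mrps21, of the bacterial S21 family, rose in knockout cells and stayed high in rescue cells. It lies on chromosome 3 (95862634 to 95871519, minus strand), and the bases before its start, chr3:95871515-95871634 on the minus strand, hold the NRF1 letters, in capitals, on the opposite strand:
Mrps21: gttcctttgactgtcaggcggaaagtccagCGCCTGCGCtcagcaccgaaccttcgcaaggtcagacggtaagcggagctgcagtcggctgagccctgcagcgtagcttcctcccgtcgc
Mrps21 stood at 41.0, 43.4 and 37.6 CPM in rescue libraries, 39.7, 43.9 and 44.7 CPM in knockout libraries and 22.2, 26.2 and 24.0 CPM in empty-vector libraries. Rescue and knockout overlapped, and both lay above empty vector: the log2 change was 0.83 ± 0.08 in knockout against empty vector (adjusted p = 3.8e-08), -0.07 ± 0.08 in rescue against knockout (adjusted p = 0.45) and 0.76 ± 0.08 in rescue against empty vector (adjusted p = 3.5e-07). The other small-subunit increases in knockout cells, Mrps7, Mrps28 and Mrps18b, were smaller. Mrps7, of the S7 family of the subunit's head, stood at 95.8, 100.3 and 93.2 CPM in rescue libraries, 74.8, 78.9 and 80.8 CPM in knockout libraries and 69.8, 57.1 and 62.8 CPM in empty-vector libraries. It increased at both steps without overlap, by 0.30 ± 0.07 in knockout against empty vector (adjusted p = 0.001) and 0.30 ± 0.07 in rescue against knockout (adjusted p = 0.001). Mrps28 rose by 0.29 ± 0.08 in knockout against empty vector (adjusted p = 0.0045). With library totals in place of TMM scaling, the increases of Mrps7, Mrps28 and Mrps18b in knockout against empty vector were no longer called.

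Mrpl18, Mrpl2, Mrpl52, Mrpl42, Mrpl45 and Mrpl10 were the large-subunit members named for an increase in knockout cells. Mrpl18, of the L18 family of the central protuberance, stood at 48.5, 45.3 and 36.7 CPM in rescue libraries, 38.8, 38.6 and 39.1 CPM in knockout libraries and 22.2, 23 and 23.1 CPM in empty-vector libraries. Rescue overlapped knockout and both lay above empty vector, with log2 changes of 0.77 ± 0.09 in knockout against empty vector (adjusted p = 3.2e-07) and 0.94 ± 0.09 in rescue against empty vector (adjusted p = 5.9e-08). The gene shares 10.1% of its exon bases, on the opposite strand, with the chaperonin gene Tcp1, which had 4724 to 15533 counts. Tcp1 had log2 values of -0.37 ± 0.07 and 0.11 ± 0.07 in these comparisons (adjusted p = 8e-05 and 0.18). In rescue against knockout Tcp1 rose by 0.48 ± 0.07 (adjusted p = 4.4e-06). With the strand setting of the counting unknown, the Mrpl18 values are uncertain to that extent. In rescue against knockout the log2 value of Mrpl18 was 0.17 ± 0.08 (adjusted p = 0.094), called without empty-vector replicate 1, without rescue replicate 3, with library totals and without the filter on low counts. Mrpl2 stood at 108, 116 and 113 CPM in rescue libraries, 107, 107 and 105 CPM in knockout libraries and 89.9, 57.4 and 62.7 CPM in empty-vector libraries. Its empty-vector libraries spread widely, and its log2 change of 0.60 ± 0.14 in knockout against empty vector (adjusted p = 0.0049) ranged from 0.48 to 0.84 when each library was left out in turn. Mrpl45, which anchors the large subunit at the inner membrane, averaged 75.2 ± 0.555 CPM in rescue, 79.8 ± 3.11 CPM in knockout and 61.7 ± 3.98 CPM in empty-vector libraries (SD, n = 3 each). Mrpl10, the base of the stalk that carries Mrpl12, averaged 77.8 ± 2.07 CPM in rescue, 82.9 ± 1.28 CPM in knockout and 66.0 ± 8.5 CPM in empty-vector libraries (SD, n = 3 each). The increases in knockout against empty vector were 0.48 ± 0.07 for Mrpl52, 0.42 ± 0.06 for Mrpl42, 0.37 ± 0.06 for Mrpl45 and 0.33 ± 0.07 for Mrpl10 on the log2 scale (adjusted p = 5.7e-06, 1.4e-05, 4.4e-05 and 0.00087).

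**Figure D3:**
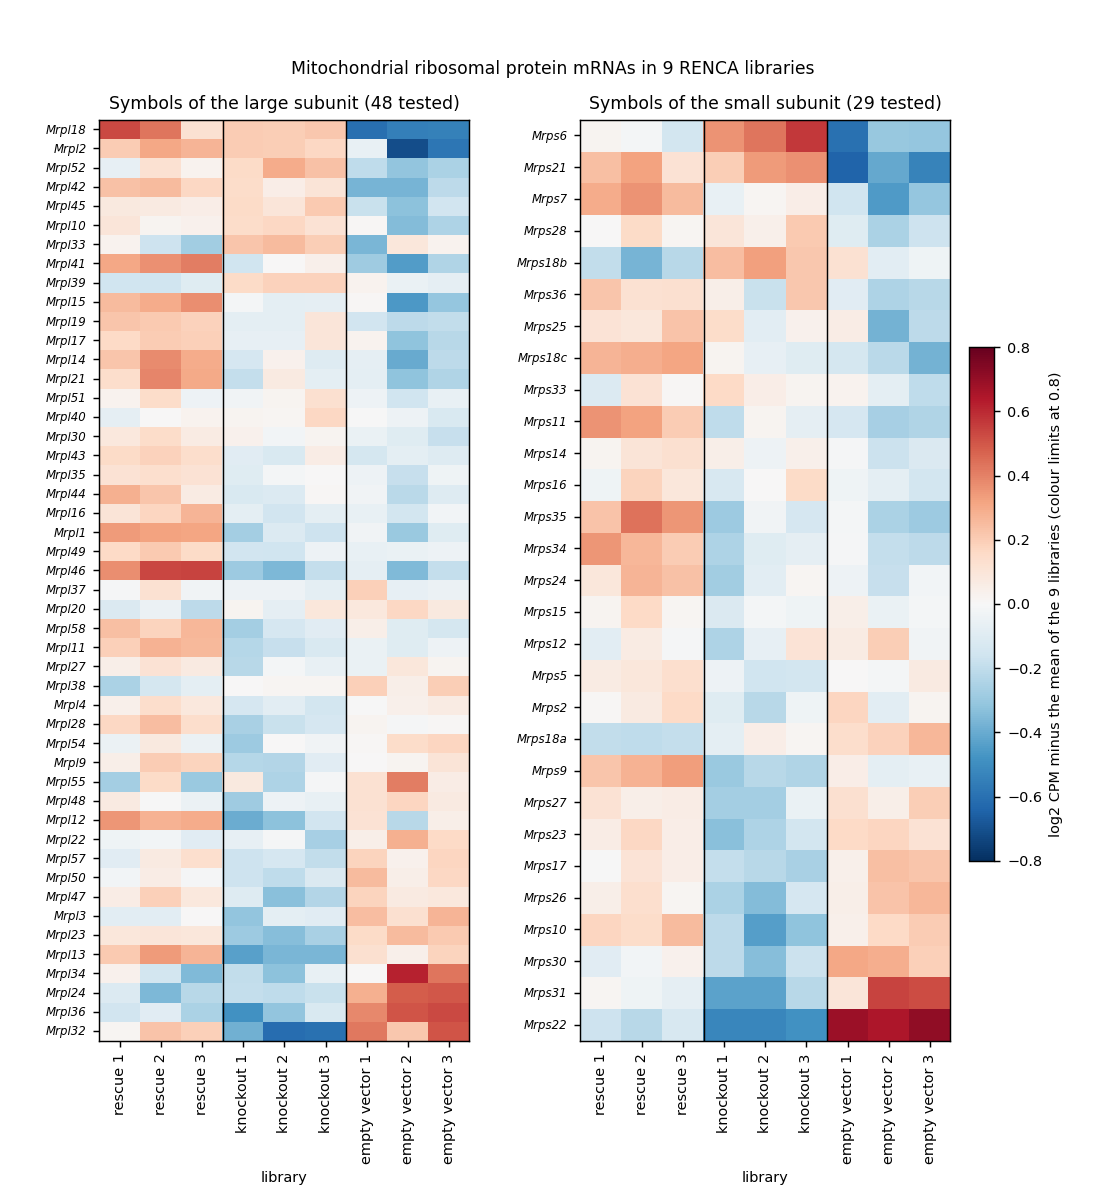
Log2 CPM of each tested member minus its mean over the 9 libraries, in rescue, knockout and empty-vector libraries, for large-subunit (left, 48) and small-subunit (right, 29) symbols, ordered by change in knockout against empty vector. Blue marks low and red marks high values, with colour limits at 0.8; Mrps22 and Mrpl32 stand at the foot of their panels, at changes of -1.19 and -0.92.

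Rescue cells had more of most members than knockout cells. The test called 24 of 48 large-subunit members higher and 4 lower, and 17 of 29 small-subunit members higher and 3 lower. Over all genes tested, 56.8% were called in this comparison, 29.5% higher and 27.3% lower, against 53.2% higher and 9.09% lower among the members. The median log2 change was 0.17 for large-subunit and 0.21 for small-subunit members, beside 0.03 for all genes. There was no overlap between libraries for 48 members that were higher and 9 that were lower in rescue, where 65.3% of all genes did not overlap, 34.6% higher and 30.7% lower. No member changed by 1 log2 unit or more, where 1446 of the 13326 genes tested did. The count of 4 large-subunit decreases was 2 without knockout replicate 2, without rescue replicate 1 or without rescue replicate 3, and 2 without the filter on low counts. With library totals the median of all genes shifted by 0.18 and 58 members rose while 2 fell. That made 96.7% of the members' calls and 69.6% of those of all genes increases, against 85.4% and 51.9% with TMM scaling. The median of the members minus that of all genes was 0.16 with either scaling.

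Mrpl46 and Mrpl12 were among the large-subunit members that rose most in rescue cells. Mrpl46, a mitochondria-specific protein encoded on chromosome 7 (78775236 to 78783531, minus strand), stood at 85.5, 95.5 and 96.2 CPM in rescue libraries, 54.1, 51.5 and 58.0 CPM in knockout libraries and 62.9, 51.8 and 57.8 CPM in empty-vector libraries. Knockout and empty-vector libraries overlapped and rescue stood above both: the log2 change was 0.76 ± 0.08 in rescue against knockout (adjusted p = 6.8e-08), 0.68 ± 0.07 in rescue against empty vector (adjusted p = 5.8e-07) and -0.08 ± 0.08 in knockout against empty vector (adjusted p = 0.4). It lies head to head with another member, Mrps11, of the S11 family, with which 12.2% of its exon bases overlap on the opposite strand. Mrps11 rose by 0.38 ± 0.07 in rescue against knockout (adjusted p = 0.00017) and by 0.51 ± 0.07 in rescue against empty vector (adjusted p = 1.2e-05). The strand setting of the counting is unknown here, and reads in the shared bases cannot be told apart.

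Mrpl12, the stalk protein that contacts translation factors and is also known to bind the mitochondrial RNA polymerase, lies on chromosome 11 (120484613 to 120489065, plus strand). The bases before its start, chr11:120484517-120484636 on the plus strand, hold the NRF1 letters, in capitals, as do those of Mrpl32:
Mrpl12: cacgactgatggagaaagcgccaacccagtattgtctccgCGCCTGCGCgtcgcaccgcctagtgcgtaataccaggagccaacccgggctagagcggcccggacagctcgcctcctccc
Mrpl12 stood at 91.2, 86.5 and 87.7 CPM in rescue libraries, 54.0, 56.8 and 64.1 CPM in knockout libraries and 77.2, 61.0 and 73.5 CPM in empty-vector libraries. Rescue lay above both other groups, which overlapped. The log2 change was 0.60 ± 0.08 in rescue against knockout (adjusted p = 5e-06), 0.32 ± 0.08 in rescue against empty vector (adjusted p = 0.0029) and -0.27 ± 0.08 in knockout against empty vector (adjusted p = 0.0074). The remaining large-subunit increases named in rescue against knockout were Mrpl1, of the mobile L1 stalk, at 0.51 ± 0.08, and Mrpl11, of the factor-binding region, at 0.42 ± 0.07 (adjusted p = 2e-05 and 4.1e-05), besides Mrpl32 and Mrpl13 above.

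Among small-subunit members, Mrps9, whose S9 family reaches toward the decoded tRNA, stood at 60.9, 63.3 and 65.7 CPM in rescue libraries, 42.5, 44.8 and 44.2 CPM in knockout libraries and 54.2, 49.3 and 50.1 CPM in empty-vector libraries. The groups did not overlap and knockout was lowest, with log2 changes of 0.53 ± 0.06 in rescue against knockout (adjusted p = 8.8e-07) and -0.23 ± 0.07 in knockout against empty vector (adjusted p = 0.0054). Mrps35 and Mrps34, both mitochondria-specific, rose by 0.49 ± 0.09 and 0.41 ± 0.08 in rescue against knockout (adjusted p = 0.00015 and 0.00012). Mrps34 overlaps Mapk8ip3 on the opposite strand over 63.4% of its exon bases, and 37.0% are shared on the same strand with Nme3, which had 0 counts in every library, so its level is uncertain. Mapk8ip3 had a log2 value of 0.25 ± 0.21 in that comparison (adjusted p = 0.34).

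Large-subunit decreases in rescue against knockout were few and small, while the small-subunit decreases of Mrps18b and Mrps6 were -0.52 ± 0.07 and -0.50 ± 0.08. Mrpl33, Mrpl39, Mrpl52 and Mrpl38 changed by -0.35 ± 0.10, -0.31 ± 0.06, -0.20 ± 0.07 and -0.17 ± 0.06 on the log2 scale (adjusted p = 0.0093, 0.00021, 0.017 and 0.029). The other genes tested within 2 Mb of each had medians of -0.01, -0.52, -0.10 and 0.03 in that order, with 8 such genes for Mrpl39. The Mrpl33 call was lost without rescue replicate 3, and the Mrpl52 call without knockout replicate 2, rescue replicate 1 or rescue replicate 3. The Mrpl38 call was lost without any 1 of the knockout libraries, without rescue replicate 1 and without rescue replicate 2, and its value was 0.016 with library totals. Under library totals none of these 4 large-subunit decreases was called.

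**Figure D4:**
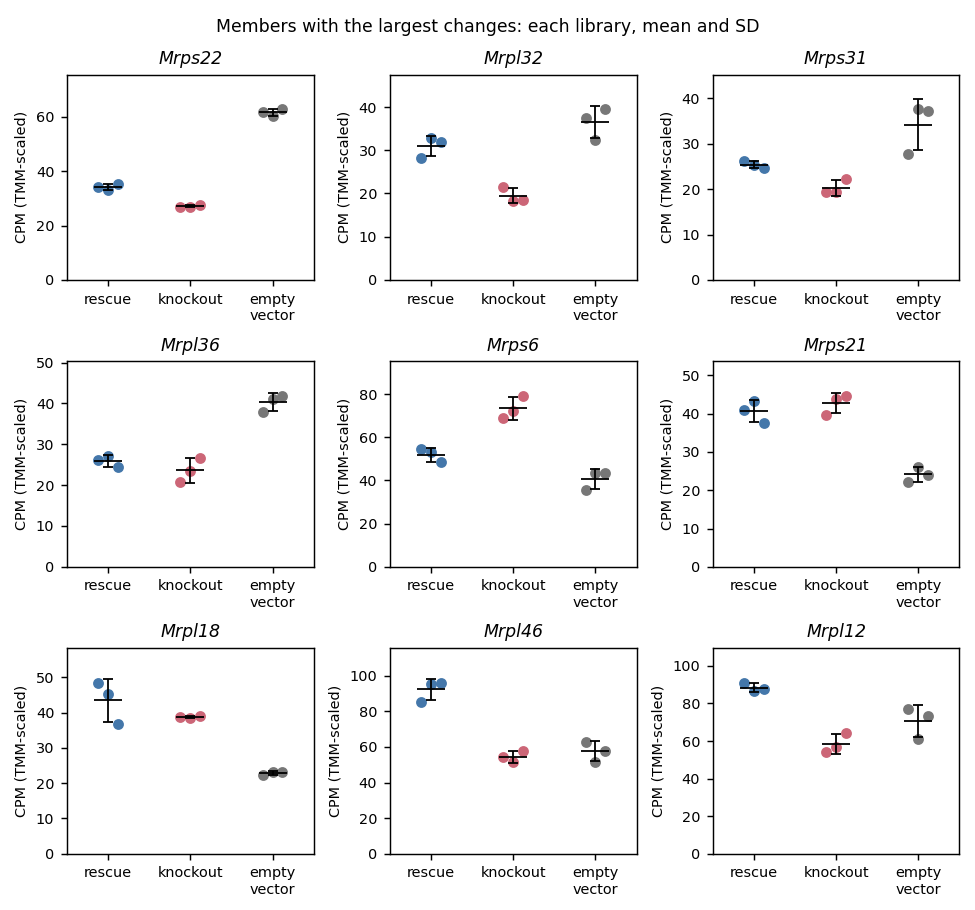
TMM-scaled CPM of 9 members in each library, with group mean (line) and SD (bar), n = 3 per group. Mrps22, Mrpl32 and Mrps31 are lowest in knockout, Mrps6 is highest there at 68.7 to 79.3 CPM, Mrpl36 stays low and Mrps21 and Mrpl18 stay high in rescue, and Mrpl46 and Mrpl12 are highest in rescue.

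The mammalian mitoribosome has 3 proteins of the bacterial S18 family, and their mRNAs had 3 different orders of group means. Mrps18a, which in mammalian structures sits in the large subunit despite its symbol, stood at 45.6, 45.4 and 45.9 CPM in rescue libraries, 49.6, 54.1 and 52.8 CPM in knockout libraries and 57.6, 59.4 and 62.9 CPM in empty-vector libraries. Its log2 change was -0.20 ± 0.06 in knockout against empty vector (adjusted p = 0.0094), a call lost without empty-vector replicate 3, and -0.19 ± 0.06 in rescue against knockout (adjusted p = 0.014), a call lost without knockout replicate 2 or rescue replicate 2, with library totals and without the filter on low counts. In rescue against empty vector it was -0.40 ± 0.06 (adjusted p = 3.9e-05). Mrps18b stood at 51.8, 45.9 and 51.1 CPM in rescue libraries, 70.6, 74.5 and 68.9 CPM in knockout libraries and 64.7, 56.0 and 58.0 CPM in empty-vector libraries. It was thus highest in knockout and lowest in rescue, with log2 changes of 0.26 ± 0.07 in knockout against empty vector (adjusted p = 0.0037), -0.52 ± 0.07 in rescue against knockout (adjusted p = 3.5e-06) and -0.26 ± 0.07 in rescue against empty vector (adjusted p = 0.0045). An antisense gene, Gm16279, overlaps 30.5% of its exon bases and had 24 to 50 counts. Mrps18c stood at 11.7, 11.9 and 12.1 CPM in rescue libraries, 9.85, 9.25 and 9.06 CPM in knockout libraries and 8.79, 8.36 and 7.46 CPM in empty-vector libraries. The fitted log2 values were 0.20 ± 0.11 in knockout against empty vector (adjusted p = 0.14), 0.34 ± 0.11 in rescue against knockout (adjusted p = 0.012) and 0.54 ± 0.11 in rescue against empty vector (adjusted p = 0.00043), so rescue was highest for this paralogue and lowest for the other two.

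Mrps30 and Mrps36 also carry small-subunit symbols that structures do not bear out. Mrps30, a large-subunit protein in mammalian structures, stood at 19.5, 20.5 and 21.3 CPM in rescue libraries, 18, 16.4 and 18.4 CPM in knockout libraries and 25.7, 25.4 and 23.7 CPM in empty-vector libraries. The fitted log2 change was -0.50 ± 0.08 in knockout against empty vector (adjusted p = 4.3e-05) and -0.29 ± 0.08 in rescue against empty vector (adjusted p = 0.0066). In rescue against knockout it was 0.21 ± 0.09 (adjusted p = 0.047), a call lost in DESeq2, with RLE size factors, in a fit of only the 2 groups, with each of 5 libraries left out (empty-vector replicate 3, knockout replicates 1 and 2, rescue replicates 2 and 3) and in the fit with a replicate block, where its adjusted p was 0.064. Mrps36, now placed in the oxoglutarate dehydrogenase complex of the tricarboxylic acid cycle, stood at 20.6, 19.2 and 19.2 CPM in rescue libraries, 18.2, 15.6 and 20.4 CPM in knockout libraries and 16.6, 14.9 and 15.1 CPM in empty-vector libraries. Its log2 change was 0.34 ± 0.10 in rescue against empty vector (adjusted p = 0.0072) and 0.23 ± 0.10 in knockout against empty vector (adjusted p = 0.052), which was called without empty-vector replicate 1 or knockout replicate 2. Grouped by place in the structure, 10 of 50 tested large-subunit members rose and 19 fell in knockout against empty vector, and 25 rose and 5 fell in rescue against knockout. The 26 small-subunit members counted 5 higher and 8 lower in knockout against empty vector, and 16 higher and 2 lower in rescue against knockout.

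Rescue cells also had more of many members than empty-vector cells. In rescue against empty vector, 25 of 48 large-subunit members rose and 8 fell, and 13 of 29 small-subunit members rose and 5 fell. Over all genes tested, 47.5% were called in this comparison, 22.4% higher and 25.1% lower, against 49.4% higher and 16.9% lower among the members. The median log2 change was 0.17 for large-subunit and 0.09 for small-subunit members, beside -0.02 for all genes. There was no overlap for 40 members that were higher and 14 that were lower, where 55.1% of all genes did not overlap, 26.5% higher and 28.6% lower. Both comparisons of rescue cells use the same 3 rescue libraries, so their counts are not independent of each other. Besides Mrpl18, Mrpl46 and Mrps7, the members named for an increase were Mrpl2 at 0.67 ± 0.14, Mrpl41 at 0.67 ± 0.08, Mrps18c at 0.54 ± 0.11 and Mrps35 at 0.52 ± 0.09, with Mrps21 above (adjusted p = 0.0036, 9.1e-07, 0.00043 and 0.00011 in that order). Mrps7 rose by 0.61 ± 0.07 (adjusted p = 9.9e-07). The large-subunit decreases named were Mrpl24 and Mrpl36 above, Mrpl38 at -0.30 ± 0.06 and Mrpl3, of the L3 family, at -0.27 ± 0.07 (adjusted p = 0.00052 and 0.0026). The small-subunit decreases named were Mrps22, Mrps31, Mrps18a and Mrps30, with the values above.

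By their 3 group means, the 77 tested members fell into all 6 possible orders. Means were highest in rescue, then knockout, then empty vector for 22 members, and highest in empty vector, then rescue, then knockout for 20. A further 19 were highest in rescue and lowest in knockout, and 8 were highest in knockout with rescue in the middle. Rescue was lowest for the remaining members, 5 with empty vector highest and 3 with knockout highest. By descent, in rescue against knockout 26 of 46 members with a bacterial homologue rose and 2 fell, and 15 of 30 tested mitochondria-specific members rose and 5 fell; this difference was not tested. Mrps18a and Mrps18b, relatives of S18 that both fell in this comparison, were counted as mitochondria-specific. The 7 members called in no comparison were Mrpl37, Mrpl40, Mrpl51, Mrps12, Mrps15, Mrps16 and Mrps33.

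In the authors' deposited table, which holds their own adjusted p-values, 22 of the 27 large-subunit members called here in knockout against empty vector were called in the same direction, and 14 of the 15 small-subunit members. For rescue against knockout, where the authors' deposited table gives knockout over rescue and the sign was turned, it called 26 of 28 and 18 of 20 in the same direction. For rescue against empty vector, the authors' deposited table called 29 of 33 and 16 of 18.

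Some members share sequence with other genes. In the GENCODE M21 annotation, whose coordinates match 73 of the 78 members, 33 members share exon bases with another gene, 28 on the opposite strand and 8 on the same strand. There are also 5 processed pseudogenes named after members, of which Mrpl48-ps had the most counts, 59 to 202 per library. Other genes on the same chromosomes are given beside the members in 3 cases chosen after their values were seen. The 5 members on chromosome 13, Mrpl32, Mrpl36 and Mrps30 among them, had a median log2 change of -0.50 in knockout against empty vector, where the other 480 genes tested on that chromosome had -0.20. The 3 members on chromosome 16 had 0.21 beside 0.26 for the other 417 genes. On chromosome 19 all 5 members were called higher in rescue cells than in knockout cells, at a median of 0.29 beside 0.07 for the other 459 genes. Over all chromosomes, 53.2% of the members and 29.5% of all genes tested were called higher in that comparison.

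The promoters of the members were searched for the letters of 3 motifs known from genes of this class, in RefSeq windows of 300 bases, from 250 before to 50 after the start, on both strands; 69 of the 78 members had a window. A gene was counted if any of its windows held the letters. The NRF1 letters GCGCANGCG stood in 23.2% of the members with a window and 7.03% of 27025 genes. The latter were all genes with a RefSeq window, tested here or not, and were not matched to the members in base composition. The ETS core CCGGAAG stood in 37.7% of these members and 9.93% of all genes, and the YY1 letters AAGATGGCG in 11.6% and 1.64%. At least 1 of the motifs stood in 42 of the 69 members, or 60.9%, and in 16.5% of all genes. NRF1 letters stood in 27.9% and ETS letters in 34.9% of large-subunit members, and in 15.4% and 42.3% of small-subunit members. A match is a string of letters and not a measured site, and of the members shown above, Mrps22 and Mrpl32 fell and Mrps21 rose in knockout cells with such strings, while Mrps6 rose without them.

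Both mitochondrial ribosomal RNAs were higher in knockout cells than in empty-vector cells and lower in rescue cells than in knockout cells. The 12S RNA, mt-Rnr1, stood at 232, 231 and 223 CPM in rescue libraries, 1312, 995 and 841 CPM in knockout libraries and 295, 212 and 242 CPM in empty-vector libraries. The 16S RNA, mt-Rnr2, stood at 472, 452 and 471 CPM in rescue libraries, 1026, 874 and 759 CPM in knockout libraries and 449, 295 and 388 CPM in empty-vector libraries. Every knockout library was above every other library for both. The log2 changes were 2.07 ± 0.18 and 1.23 ± 0.15 in knockout against empty vector (adjusted p = 1.1e-05 and 5.6e-05) and -2.20 ± 0.18 and -0.93 ± 0.15 in rescue against knockout (adjusted p = 9e-06 and 0.00043). The libraries were selected for poly(A), so these counts cover the rRNA molecules that the selection kept, and they are part of the mitochondrial share given above.

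Mitoribosomal proteins with other names were 5, all tested: 2 rose and 1 fell in knockout against empty vector, and 3 rose and 1 fell in rescue against knockout. With so few genes these shares, 60% and 80%, stand beside 60.6% and 56.8% called among all genes. Gadd45gip1, a large-subunit protein, averaged 24.2 ± 2.12 CPM in rescue, 18.9 ± 1.93 CPM in knockout and 13.7 ± 1.92 CPM in empty-vector libraries (SD, n = 3 each), with a log2 change of 0.81 ± 0.11 in rescue against empty vector (adjusted p = 5.2e-06). Ptcd3, a small-subunit protein that binds RNA, fell by 0.53 ± 0.07 on the log2 scale in knockout against empty vector (adjusted p = 2.1e-06) and rose by 0.37 ± 0.07 in rescue against knockout (adjusted p = 0.00013). Aurkaip1, also of the small subunit, rose by 0.38 ± 0.06 in knockout against empty vector (adjusted p = 1.4e-05). Chchd1 had a log2 value of 0.08 ± 0.07 in knockout against empty vector (adjusted p = 0.32) and rose by 0.35 ± 0.07 in rescue against empty vector (adjusted p = 0.00024).

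Of 14 mitochondrial translation factors, 2 rose and 6 fell in knockout against empty vector, and 7 rose and 3 fell in rescue against knockout. That is 57.1% and 71.4% called, where 60.6% and 56.8% of all genes were called. Gfm1, the elongation factor that moves the ribosome along the mRNA, averaged 119 ± 3.47 CPM in rescue, 105 ± 3.59 CPM in knockout and 152 ± 4.04 CPM in empty-vector libraries (SD, n = 3 each), a change of -0.54 ± 0.06 in knockout against empty vector (adjusted p = 1.5e-07). Mtif2, the initiation factor, fell by 0.44 ± 0.07 on the log2 scale in knockout against empty vector (adjusted p = 1.7e-05). Gfm2, which recycles ribosomes, and Oxa1l, which inserts new proteins in the inner membrane, fell by 0.42 ± 0.06 and 0.33 ± 0.06 in rescue against knockout (adjusted p = 8.9e-06 and 0.00021). The Oxa1l call in rescue against knockout was lost with library totals.

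Of 31 assembly and rRNA modification factors 30 were tested, and 3 rose and 15 fell in knockout against empty vector. In rescue against knockout 9 rose and 9 fell, and in rescue against empty vector 2 rose and 12 fell, with a median of -0.17, where the members' median was 0.16. The shares called, 60%, 60% and 46.7%, were near those of all genes, 60.6%, 56.8% and 47.5%. Fastkd2, which binds the 16S RNA, stood at 64.6, 62.4 and 65.4 CPM in rescue libraries, 101, 105 and 97.4 CPM in knockout libraries and 106, 110.3 and 111 CPM in empty-vector libraries. Rescue lay below both other groups, with a change of -0.65 ± 0.06 in rescue against knockout (adjusted p = 1.4e-08) and -0.77 ± 0.06 in rescue against empty vector (adjusted p = 4.8e-09). Mtg2, a GTPase of large-subunit assembly, averaged 25 ± 0.458 CPM in rescue, 20.3 ± 0.264 CPM in knockout and 35.9 ± 3.62 CPM in empty-vector libraries (SD, n = 3 each), a change of -0.82 ± 0.08 in knockout against empty vector (adjusted p = 6.6e-08). Ptcd1, which acts on the 16S RNA, changed by -0.62 ± 0.06 in rescue against empty vector (adjusted p = 2.8e-07).

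Of 10 nuclear regulators of mitochondrial biogenesis, 1 rose and 5 fell in knockout against empty vector, and 7 rose and 1 fell in rescue against knockout. That is 60% and 80% called, where 60.6% and 56.8% of all genes were called. Ppargc1a, the coactivator PGC-1alpha, stood at 13.5, 11.7 and 14.3 CPM in rescue libraries, 3.43, 2.23 and 1.90 CPM in knockout libraries and 9.59, 12.4 and 14.3 CPM in empty-vector libraries. On the log2 scale it changed by -2.29 ± 0.20 in knockout against empty vector (adjusted p = 3.7e-08) and 2.41 ± 0.20 in rescue against knockout (adjusted p = 2.1e-08), and rescue and empty-vector libraries overlapped. Myc, a transcription factor that raises ribosome production, averaged 394 ± 41.9 CPM in rescue, 249.7 ± 12.4 CPM in knockout and 572 ± 38.1 CPM in empty-vector libraries (SD, n = 3 each). The fitted log2 change was -1.19 ± 0.08 in knockout against empty vector (adjusted p = 2e-10) and 0.66 ± 0.08 in rescue against knockout (adjusted p = 6.7e-07). Pprc1, a relative of PGC-1alpha, and Gabpb1, a subunit of the ETS-family factor GABP, fell by 0.61 ± 0.06 and 0.60 ± 0.07 on the log2 scale in knockout against empty vector (adjusted p = 7.3e-08 and 1e-06) and rose by 0.21 ± 0.06 and 0.47 ± 0.08 in rescue against knockout (adjusted p = 0.0079 and 2.2e-05). Gabpa, another subunit of GABP, went the other way. It rose by 0.37 ± 0.06 in knockout against empty vector (adjusted p = 3.3e-05) and fell by 0.28 ± 0.06 in rescue against knockout (adjusted p = 0.0006). Nrf1, the mouse gene of the factor NRF1, fell by 0.50 ± 0.07 in knockout against empty vector (adjusted p = 6.7e-06). It rose by 0.42 ± 0.07 in rescue against knockout (adjusted p = 5.3e-05). Yy1, the mouse gene of the factor YY1, had log2 values of 0.13 ± 0.06 in knockout against empty vector (adjusted p = 0.057). It had 0.01 ± 0.06 in rescue against knockout (adjusted p = 0.87) and 0.14 ± 0.06 in rescue against empty vector (adjusted p = 0.047). Gabpa, Nrf1 and Yy1 were named after their values were seen.

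**Figure D5:**
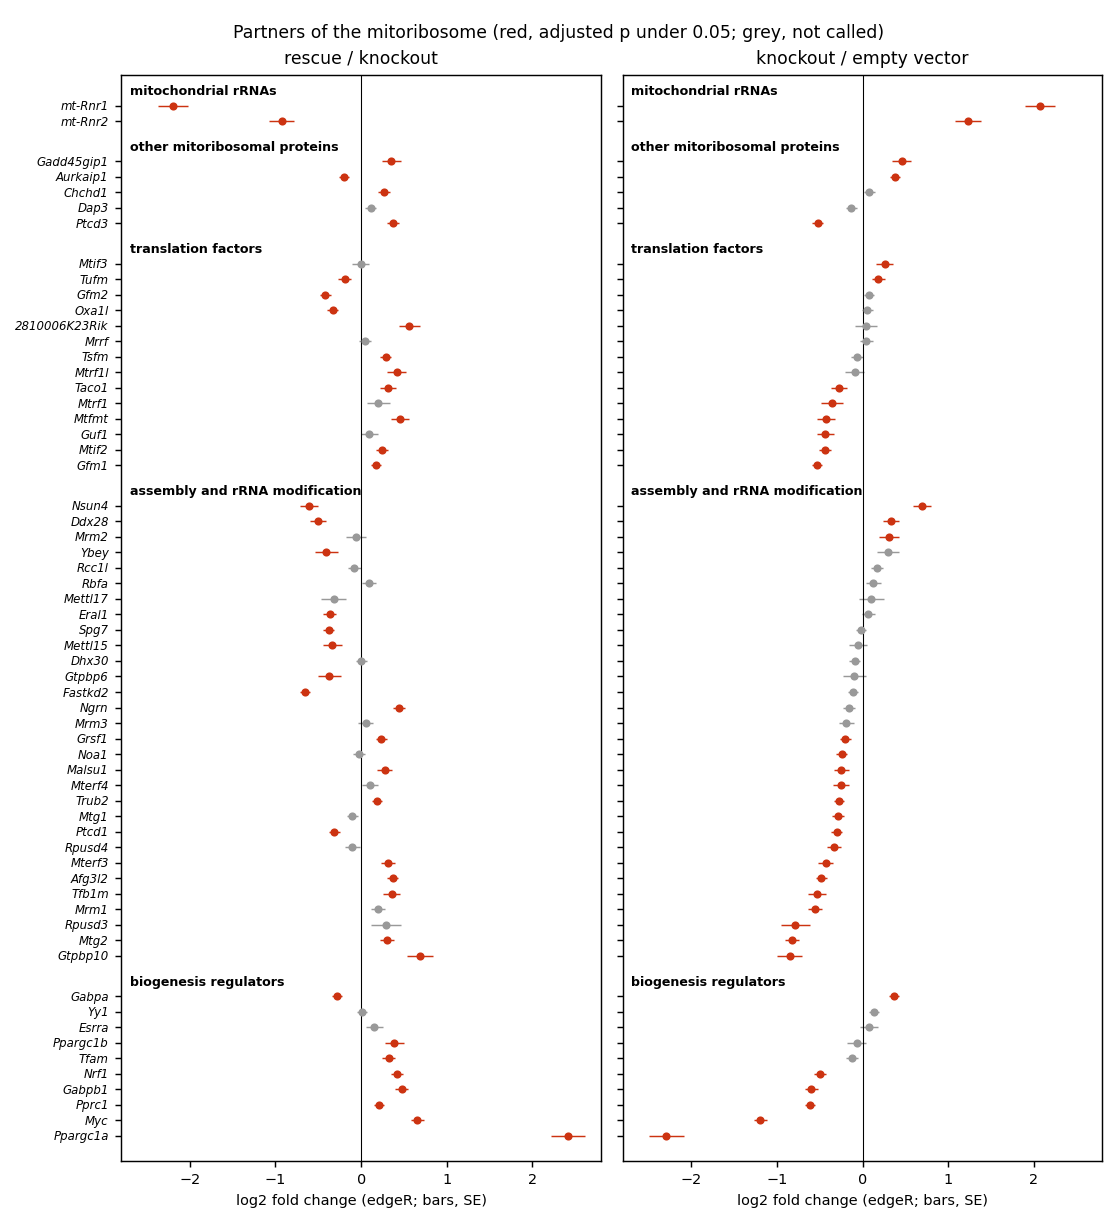
Log2 fold change (edgeR, bars are SE) of each tested partner of the mitoribosome in rescue against knockout (left) and knockout against empty vector (right), by list, with red points for an adjusted p under 0.05. The rRNAs mt-Rnr1 and mt-Rnr2 lie at 2.07 and 1.23 on the right and at -2.20 and -0.93 on the left, and Ppargc1a at -2.29 and 2.41.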

How the data were processed

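Whole-number counts per gene, FPKM per library, group means, log2 fold changes and p-values were deposited by the authors in 1 table, per the file headers; the authors' log2 fold changes gave only the direction of their calls, and their group means were not used. Tools named without versions or roles in the submitters' processing notes are HISAT2, HISAT, TopHat2 and CASAVA, and the build is mm10; the counter, its strand setting and the authors' test are not given there or elsewhere in the sources used. The series text gives fewer knockout replicates than the 3 labelled, and all 3 were used. Exon overlaps come from GENCODE M21 and promoters from RefSeq (GRCm38.p6).

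Counts of the 9 libraries were fitted together in edgeR 4.0.16 (R 4.3.3; filterByExpr, TMM, robust quasi-likelihood, 1 mean per group), with Benjamini-Hochberg adjustment over 13326 genes and calls at an adjusted p under 0.05. SE is the absolute log2 fold change over the square root of F. CPM uses TMM-scaled sizes, and count limits cover counting error only. The fit was tested on simulated data. DESeq2 1.42.0, other scalings, no filter, 2-group fits, a replicate block and leaving out each library were the alternatives. Libraries of 1 group all differed by more than counting error, at 3.64 to 20.25 in chi-square per degree of freedom.

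Members and lists were chosen with earlier results of these data known. Named members were, per comparison, subunit and direction, up to 6 (4 in rescue against empty vector) of the largest called changes. Only members without overlap between the libraries of the 2 groups, and with a higher group averaging 5 CPM or more, could be named. The non-overlap of members named in a comparison by this rule therefore follows from their choice. Mrps18a, Mrps18b, Mrps18c, Mrps30, Mrps36, Mrpl12, Mrpl32 and Mrpl53 were named whatever their values. Of each partner list, up to 4 genes of smallest adjusted p were named, and Gabpa, Nrf1 and Yy1 were added after their values were seen. Members were kept out of the list of proteins with other names. A marker gene of the lists is not reported here.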

Additional observations from a re-analysis of the deposited data

How the results depend on the processing

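Of the 2880 recomputed values of members and partner genes named in the text, 2772 kept their direction and side of the threshold, 79 lost a call, 28 gained one and 1 reversed: Mrpl38 in rescue against knockout was 0.016 with library totals alone (adjusted p = 0.84). The runs on partner genes were added after the data were seen, and they did not cover Gabpa, Nrf1 or Yy1. With library totals alone, knockout against empty vector gave 6 higher and 27 lower large-subunit members (median -0.23) and 2 higher small-subunit members (median -0.18), and rescue against knockout gave 0 lower large-subunit members with medians of 0.36 (large) and 0.39 (small). The median of all genes with library totals was -0.17 in knockout against empty vector and 0.22 in rescue against knockout. Without the filter on low counts, 2 large-subunit members were lower in rescue against knockout, with a median of 0.21. Grouped by structure, 3 small-subunit members were lower in rescue against empty vector. Leaving out each library in turn gave the following ranges. In knockout against empty vector, 9 to 15 large-subunit members were higher and 14 to 17 lower (median -0.12 to -0.0185), and 5 to 10 small-subunit members higher and 9 to 12 lower (median -0.077 to 0.044). In rescue against knockout, the counts were 20 to 27 and 2 to 4 (median 0.16 to 0.20), and 14 to 17 and 2 to 3 (median 0.19 to 0.25). In rescue against empty vector, they were 22 to 25 and 6 to 8 (median 0.14 to 0.20), and 10 to 14 and 5 to 7 (median 0.078 to 0.17).

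Replicate numbers did not pair the libraries (r of -0.15 to 0.045 between same-numbered libraries of different groups). With a replicate block, 14 members were higher and 26 lower in knockout against empty vector, 39 and 7 in rescue against knockout, and 37 and 13 in rescue against empty vector. Among named members, the block ended the calls of Mrps30 in rescue against knockout (adjusted p = 0.064) and of Mrpl13 in rescue against empty vector. Depth limits Mrps18c most, with the lowest counts among the tested members.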
